A study of Rattus norvegicus with 8 samples.

Results

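The genes described here make or remove superoxide and hydrogen peroxide in rat liver. They are 3 membrane subunits of NADPH oxidases (Nox4, Cybb and Cyba), the superoxide dismutases Sod1 and Sod2, the catalase gene Cat, the glutathione peroxidases Gpx1, Gpx2 and Gpx4, and the peroxiredoxin Prdx1. A probe was included when the scanner's annotation gave it one of these 10 symbols and it was not a control spot. That gave 12 of the 30367 probes on the array, with 1 probe for 8 of the genes and a pair of probes for Gpx2 and for Gpx4. All 12 were bright enough to be tested, among 20268 tested probes that name 13122 genes by symbol.

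The study measured liver RNA of male Fisher 344 rats on 8 one-colour Agilent arrays, each from a different animal. Of these, 4 arrays (furan 1 to 4) came from rats given furan by gavage at 8 mg per kg body weight a day, 5 days a week over 90 days. The other 4 arrays (control 1 to 4) came from control rats, whose vehicle the labels do not name. All rats were 18 weeks old and were killed 24 h after the last dosing. The p-values below weigh a group difference against the spread among arrays of a group, which holds animal and array differences together.

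Furan is a small volatile ring compound that liver cytochrome P450 turns into a reactive dialdehyde. NADPH oxidases pass electrons from NADPH to oxygen: Cybb (NOX2) is the phagocyte enzyme and releases superoxide, whereas NOX4 is found in several other cell types and releases mainly hydrogen peroxide, and both sit in the membrane together with the Cyba protein p22phox. Superoxide dismutases turn superoxide into hydrogen peroxide, which catalase removes in peroxisomes and glutathione peroxidases and peroxiredoxins remove with thiols. Gpx1, Gpx2 and Gpx4 are selenoproteins, and Gpx2 is known as the glutathione peroxidase of gastrointestinal epithelium.

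A level here is the log2 processed intensity minus the log2 75th percentile of that array's non-control spots, so 0 is the 75th percentile and a difference of 1 is a factor of 2. That percentile lay at an intensity of 827 to 1057 on the control arrays and 1256 to 1596 on the furan arrays, and 70.9% to 74.8% of control spots and 73.2% to 78.5% of furan spots were well above background. No spot was saturated, and the number of arrays limits the precision. Arrays 1 and 2 of each group shared a slide and arrays 3 and 4 shared the other. Levels correlated over probes at 0.980 to 0.992 between control arrays, 0.979 to 0.993 between furan arrays and 0.953 to 0.980 across groups. The 10 hepatocyte markers, such as albumin, had summed log2 levels of 10.8 to 11 in controls and 10.3 to 10.6 after furan. Of these markers 1 rose and 7 fell, but with quantile normalization of the arrays 1 rose and 2 fell. Control 2 and furan 1 stood apart from their groups in bile duct keratins, and values without both are given where a result rests on them.

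The probes of Nox4 and Cat and 1 of the Gpx2 probes lie in coding sequence by their open reading frame and detect the genes with the clearest changes, so their 60-base sequences are printed here. The Gpx2 probe ends at the stop codon, which is in capitals. Coordinates are those in the scanner annotation (rat build rn4), and the Nox4 and Cat probes map over 2129 and 1945 genomic bases because they cross introns. Probe strands were read only from the order of those coordinates. For Cat the strand is uncertain, since RefSeq has the gene on the minus strand in rat build GRCr8.
Nox4, chr1:143584026-143586154, plus strand: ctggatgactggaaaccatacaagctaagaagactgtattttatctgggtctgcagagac
Cat, chr3:88683063-88685007, plus strand: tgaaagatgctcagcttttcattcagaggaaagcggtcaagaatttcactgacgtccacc
Gpx2, chr6:99372734-99372793: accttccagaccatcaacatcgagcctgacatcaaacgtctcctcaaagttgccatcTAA

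After furan, Gpx2 rose about 13-fold, Nox4 fell 10.3-fold, and Cat and Gpx1 fell by less than a factor of 2. The probes of Cybb, Cyba, Sod1, Sod2, Gpx4 and Prdx1 did not pass the test. By limma's moderated test with Benjamini-Hochberg adjustment at 0.05, 2 of the 12 probes were higher (both of Gpx2) and 3 were lower. Of all tested probes 16.9% were higher and 16.9% were lower, 33.8% in all, so the counts are near those of the array as a whole, and only the sizes of the Nox4 and Gpx2 changes lie far from it. Changes of at least 2-fold that passed the test were made by 5.01% of tested probes upward and 3.85% downward, and the median change over all tested probes was -0.03.

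**Figure D1:**
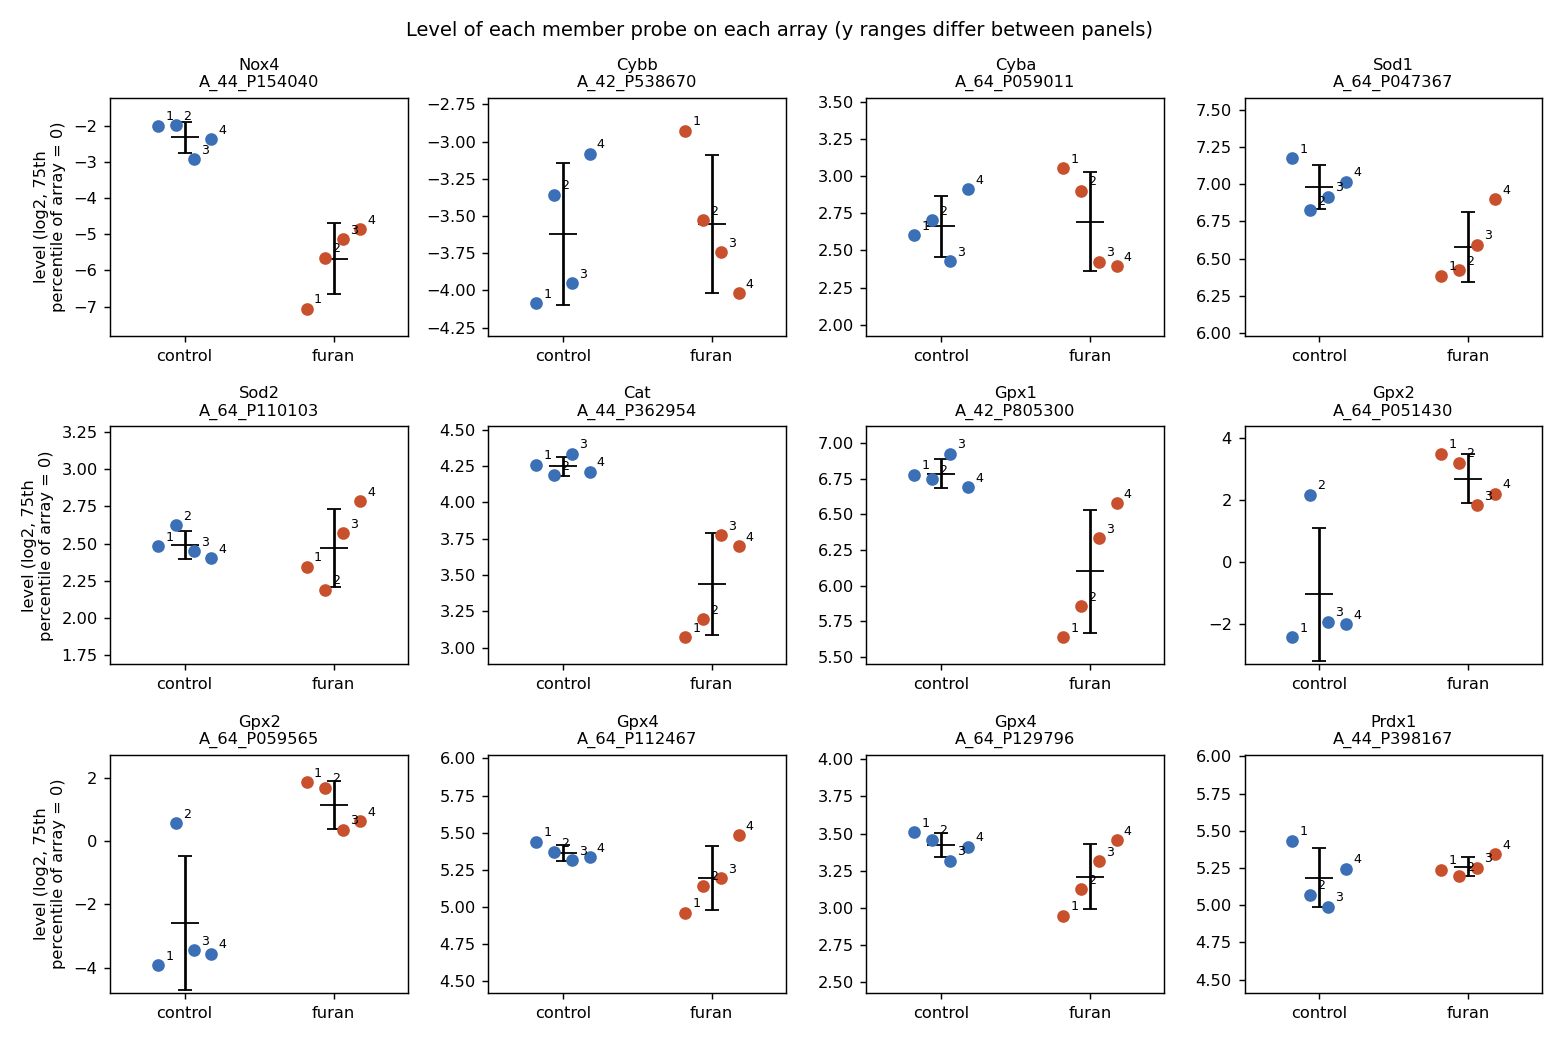
Level (log2, array 75th percentile at 0) of each of the 12 probes on each array, in 1 panel per probe with its own y range. Points are arrays numbered by replicate (blue control, orange furan), the long bar is the group mean and the whisker is 1 SD over 4 arrays; the Nox4, Cat and Gpx1 groups do not overlap, and control 2 stands with the furan arrays for Gpx2.

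**Figure D2:**
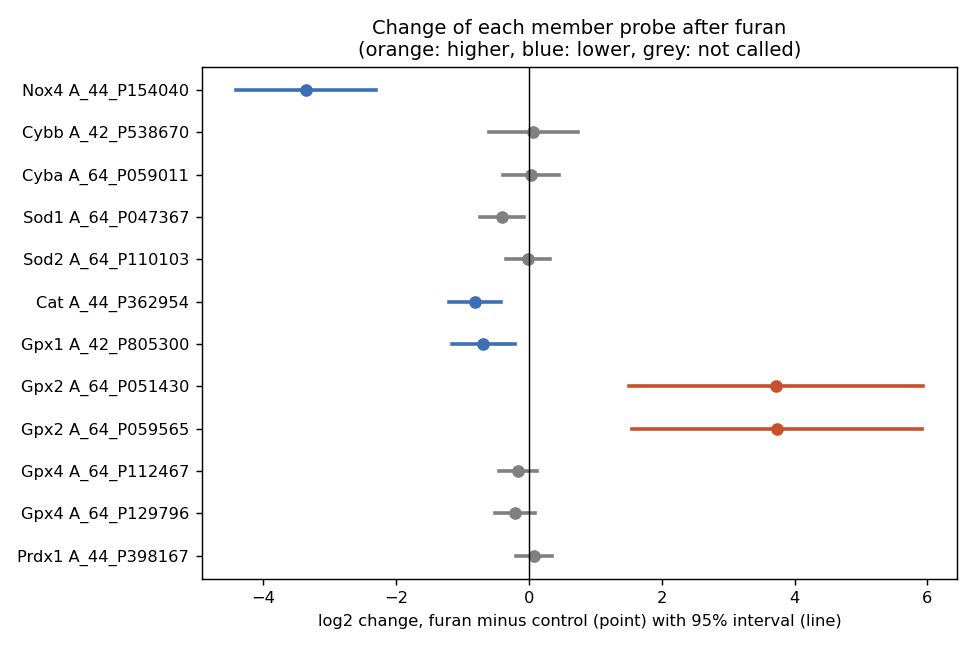
Log2 change of each probe, furan minus control (x axis), with its 95% interval from limma. The Gpx2 pair at 3.72 and 3.74 and Nox4 at -3.36 lie farthest from 0, and Cat at -0.81 and Gpx1 at -0.69 are the other called probes.

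Nox4 was lower in every furan-treated liver. Controls 1 to 4 read -1.99, -1.98, -2.91 and -2.37, and furan-treated livers 1 to 4 read -7.06, -5.65, -5.13 and -4.85. The groups were separated by a gap of 1.94 between the lowest control and the highest furan array, and furan 1 lay lowest of all. Group means (± SD, n = 4) were -2.31 ± 0.44 in controls and -5.67 ± 0.98 after furan. Their difference was -3.36 ± 0.46 (SE; 95% interval -4.41 to -2.30; limma adjusted p = 0.00178). It ranked 8 among the 20268 probes, counted from the most negative change. In whole liver, fewer cells of a type and less RNA per cell cannot be told apart.

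The Nox4 signal was dim after furan. Its processed intensity was 140 to 247 on the control arrays and 12.1, 31.9, 41.6 and 44.5 for furan 1 to 4. On furan 1 the lowest intensity among spots well above background was 9.25, and the pair of Nox4 spots there read 16.8 and 7.42, above and below it. Without furan 1 the change was -2.90 (limma adjusted p = 0.0016), and with normexp background correction, which compresses dim signals, it was -2.12. Without both control 2 and furan 1 it was -2.79 (adjusted p = 0.00425).

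The 10 hepatocyte markers had a median change of -0.60. With quantile normalization that median was 0.02, while Nox4 was at -3.46. Of stellate cell and myofibroblast markers 0 of 9 tested were called, with summed levels of 1.97 to 3.44 in controls and 2.48 to 4.06 after furan. Col3a1, at a mean of 1.65 in controls, was the brightest gene in that sum. Of 8 endothelial markers 0 were called, with a median change of -0.27 and summed levels of 2.69, 4.56, 4.32 and 4.51 in controls and 3.61, 3.72, 3.86 and 3.89 after furan. Control 1 was low, and the other controls lay above every furan array. Kdr had a mean level of 3.70 in controls and every other endothelial marker was below 0. The sum is therefore mostly Kdr and does not describe the whole list. Normexp correction called 3 endothelial markers lower, Cdh5 (-0.46), Clec4g (-0.49) and Tek (-0.50), but it also called 7102 of all 20268 tested probes lower. With quantile normalization or median centring 0 of the 8 endothelial markers were called. Of 5 tested erythroid markers Slc4a1 fell by 1.14. The part of cell makeup in the Nox4 change was not tested.

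Cybb, the catalytic subunit of the phagocyte oxidase, was dim in every liver. Its levels were -4.09, -3.36, -3.95 and -3.08 in controls and -2.93, -3.53, -3.74 and -4.02 after furan (probe at chrX:25518505-25518564, minus strand). The groups overlapped over nearly their whole range, and the change was 0.06 ± 0.29 (SE; 95% interval -0.61 to 0.74; limma adjusted p = 0.887). Of 13 tested phagocyte markers none rose, and S100a9 (-1.65) and Itgam (-0.56) fell. The summed phagocyte level was 5.15 to 5.57 in controls and 4.98 to 5.40 after furan.

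Cyba encodes p22phox, the partner that both NOX2 and NOX4 need. It had levels of 2.60, 2.70, 2.43 and 2.91 in controls and 3.05, 2.90, 2.42 and 2.40 after furan (chr19:52713156-52713215, minus strand). Furan 1 and 2 were near the highest control and furan 3 and 4 were just under the lowest one. The change was 0.03 ± 0.18 (SE; 95% interval -0.39 to 0.45; limma adjusted p = 0.909), an interval that ends far short of the Nox4 change.

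Other NADPH oxidase genes were listed too. Of 13 listed subunits and regulators, 10 were bright enough to be tested. Of these 1 rose and 1 fell, against 16.9% of all tested probes in each direction, so the counts say little. Rac1, the small GTPase that activates NOX2, rose by 0.48 (limma adjusted p = 0.0104), a call that was lost when arrays were centred on their median (adjusted p = 0.115). Cybc1, a chaperone needed for the Cybb and Cyba pair, fell by 0.41 (limma adjusted p = 0.0157). The median change of the 10 genes was -0.22. The uncalled Duox2 varied widely among arrays of a group. It read 0.93 in control 2 and 0.44 in furan 1 against -6.39 to -5.15 on the other arrays. Its change of -0.35 has a 95% interval of -4.78 to 4.07.

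Neither superoxide dismutase passed the test. Sod1, the copper and zinc enzyme of the cytosol, had levels of 7.17, 6.83, 6.91 and 7.02 in controls and 6.39, 6.42, 6.59 and 6.90 after furan (chr11:29810797-29810856, minus strand by coordinate order). RefSeq has the Sod1 gene on the plus strand in GRCr8, so that strand is uncertain. Furan 1, 2 and 3 lay under every control array and furan 4 lay among them. Its change was -0.41 ± 0.14 (SE; 95% interval -0.74 to -0.08; limma adjusted p = 0.0581). It passed without furan 4, at -0.52 (adjusted p = 0.0203), with normexp correction, at -0.37 (0.034), and with an intensity trend in the variance model (0.0477), and with quantile normalization it was -0.02 (adjusted p = 0.87).

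Sod2, the manganese enzyme of mitochondria, had levels of 2.48, 2.62, 2.45 and 2.40 in controls and 2.34, 2.19, 2.57 and 2.79 after furan (chr1:41863005-41863064, minus strand). The furan arrays lay on both sides of the controls, furan 1 and 2 under them and furan 4 above. The change was -0.02 ± 0.14 (SE; 95% interval -0.35 to 0.31; limma adjusted p = 0.938). Of the extracellular dismutase Sod3 and the copper chaperones Ccs and Atox1, 0 of 3 were called, with a median change of 0.18.

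Cat, the catalase of peroxisomes, was lower in every furan-treated liver. The controls read 4.26, 4.19, 4.33 and 4.21, and the furan arrays 3.07, 3.20, 3.77 and 3.70. The controls were tightly grouped, the groups were 0.42 apart at their nearest, and furan 1 and 2 fell farther than furan 3 and 4. Group means (± SD, n = 4) were 4.25 ± 0.06 and 3.44 ± 0.35. This 1.76-fold fall is -0.81 ± 0.17 (SE; 95% interval -1.21 to -0.42; limma adjusted p = 0.00865). The call held with each array left out in turn.

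Of 14 oxidases that produce hydrogen peroxide 7 fell, as Cat did, and 1 rose, with a median change of -0.48 against -0.03 over all tested probes. The falls included the D-amino acid oxidase Dao (-0.98; limma adjusted p = 0.0129), the branched-chain acyl-CoA oxidase Acox3 (-0.93; 0.00396) and the aldehyde oxidase Aox1 (-0.74; 0.00543). The other falls were of Xdh, Acox2, Uox and Hao2, and the count of 7 was the same under all 4 scalings tried. Paox, a polyamine oxidase, rose by 0.76 (limma adjusted p = 0.00228). Among 14 genes that assemble the peroxisome 0 fell and 2 rose, with a median change of 0.07. Over all tested probes 16.9% were lower and 16.9% higher, so such counts in a short list say little. The rises were of Pex6 (0.44; limma adjusted p = 0.0438) and Pex26 (0.40; 0.0482). The Pex6 call was lost with median centring (adjusted p = 0.209), and that of Pex26 with median centring (0.27), quantile normalization (0.356) and normexp correction, where it was at -0.03.

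**Figure D3:**
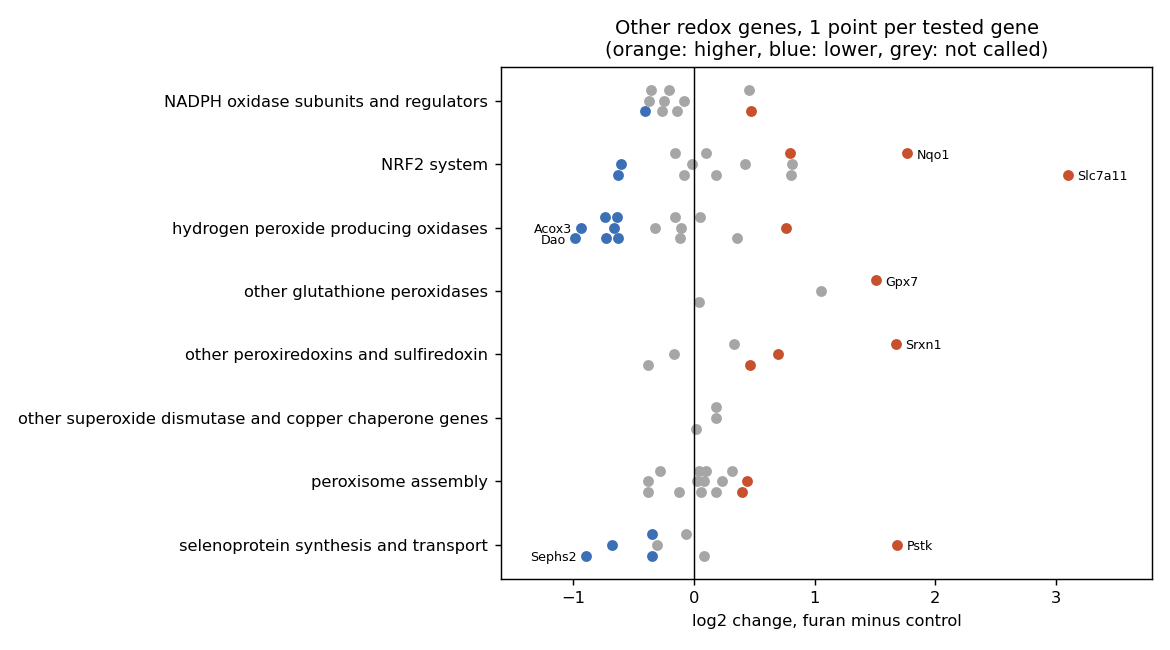
Log2 change, furan minus control (x axis), of each tested gene in 8 lists of other redox genes (y axis), with 1 point per gene coloured by limma's call and the most changed genes named. Slc7a11 lies farthest to the right, and the hydrogen peroxide producing oxidases hold 7 of the 14 falls.

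Gpx1, the abundant glutathione peroxidase of the hepatocyte cytosol, was lower after furan by a small margin. It read 6.78, 6.75, 6.93 and 6.69 in controls and 5.64, 5.85, 6.33 and 6.58 in furan arrays, as means of 10 spots on each array (chr16_random:1046407-1046466, plus strand, a stretch that rn4 does not place; RefSeq has the gene on chromosome 8 in GRCr8, so a near-identical copy cannot be told apart from it here). The groups did not overlap, as in 18% of tested probes in this direction, but furan 4 was only 0.11 under the lowest control. Group means (± SD, n = 4) were 6.79 ± 0.10 and 6.10 ± 0.43. This 1.61-fold fall is -0.69 ± 0.20 (SE; 95% interval -1.15 to -0.22; limma adjusted p = 0.0329).

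The Gpx1 call was lost in 13 of 23 alternatives, among them quantile normalization (-0.36; adjusted p = 0.119), leaving out any 1 control (adjusted p = 0.0598 to 0.082) and leaving out furan 1 (-0.53; 0.0551) or furan 2 (-0.60; 0.0902). Leaving out both control 2 and furan 1 also lost it (-0.54; limma adjusted p = 0.091). Gpx1 and Sod1 are among 302 tested probes with a mean level above 6. Of these very bright probes 43.7% were called lower, their median change was -0.39, and with quantile normalization that median was 0.11. The part of this shift of bright probes in the Gpx1 and Sod1 values was not tested.

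Gpx4, which reduces lipid hydroperoxides inside membranes, was not called by either probe. The brighter probe read 5.44, 5.37, 5.32 and 5.34 in controls and 4.96, 5.14, 5.20 and 5.48 after furan (chr7:11162522-11162581). The dimmer one read 3.51, 3.46, 3.32 and 3.41 in controls and 2.95, 3.13, 3.32 and 3.46 after furan (chr7:11163817-11163876). Both gave the same order of the furan arrays, with furan 1 lowest and furan 4 inside or above the controls. The changes were -0.17 ± 0.12 (SE; 95% interval -0.45 to 0.12; limma adjusted p = 0.329) and -0.21 ± 0.13 (SE; 95% interval -0.51 to 0.08; limma adjusted p = 0.235).

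Of 8 genes of selenoprotein synthesis and transport, on which Gpx1, Gpx2 and Gpx4 depend, 4 fell and 1 rose, with a median change of -0.32. With median centring 2 fell and with quantile normalization 3 fell. Over all tested probes 16.9% were lower and 16.9% higher. Sephs2, which makes the selenium donor selenophosphate, fell by 0.90 (limma adjusted p = 0.00158), with 2.85, 2.69, 2.82 and 2.73 in controls and 1.70, 1.73, 2.03 and 2.03 after furan. Those groups were well apart. Selenop, the selenium carrier that liver secretes, fell by 0.67 (limma adjusted p = 0.00694), but with quantile normalization it was at -0.24 (adjusted p = 0.0608). Trnau1ap, a binding partner of the selenocysteine tRNA, fell by 0.35 (limma adjusted p = 0.0466), lost with median centring (adjusted p = 0.123), and Secisbp2, which binds the selenocysteine signal in the mRNA, fell by 0.34 (limma adjusted p = 0.0282), also lost with median centring (0.109). Pstk, the kinase that acts on the serine-loaded selenocysteine tRNA, rose by 1.69 (limma adjusted p = 0.000625).

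Gpx2 was the only gene of the 10 that rose, and the only one with 1 control far from its group. The stop codon probe read -3.93, 0.57, -3.46 and -3.56 in controls and 1.87, 1.70, 0.36 and 0.63 after furan. The other probe, which also lies in the gene (chr6:99372423-99372482), read -2.42, 2.16, -1.92 and -2.01 in controls and 3.48, 3.19, 1.83 and 2.19 after furan. Control 1, 3 and 4 lay far under every furan array on both probes, whereas control 2 lay between furan 3 and furan 4. The probes differed by 1.47 to 1.61 on all 8 arrays, so the value of control 2 is not that of a single probe.

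The Gpx2 changes were 3.74 ± 0.95 (SE; 95% interval 1.56 to 5.92; limma adjusted p = 0.0183), a 13.3-fold rise, and 3.72 ± 0.97 (SE; 95% interval 1.50 to 5.93; limma adjusted p = 0.0200). Without control 2 both were 4.79 (limma adjusted p = 0.000811 and 0.000846), and without both control 2 and furan 1 they were 4.55 and 4.52 (0.00215 for each). The stop codon probe lost its call without control 3 (adjusted p = 0.0506) or furan 2 (0.0550), and the other probe without control 1 (0.0502), control 3 (0.0542), control 4 (0.0535) or furan 2 (0.0586).

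Markers of bile duct epithelium were measured beside Gpx2. Of 10 biliary markers 4 rose and none fell: Cd24 (2.97), Epcam (1.79), Cldn7 (1.54) and Sox9 (0.48), with a median change of 1.61 over the 10. The Sox9 call was lost with median centring (adjusted p = 0.0673) and with normexp correction (0.17; 0.213). The summed log2 level of the 10 was -0.14, 2.84, 0.39 and 0.05 in controls and 3.79, 2.84, 1.52 and 1.27 after furan. Control 2 was again with the furan arrays, at the value of furan 2. The defining keratins did not follow the groups: Krt19 read -3.76, 0.32, -3.28 and -4.33 in controls and 0.71, -1.72, -3.62 and -3.52 after furan, and Krt7 0.30 in control 2 and 0.57 in furan 1 against -4.69 to -1.42 on the other arrays. Cd24 and Epcam, like Gpx2, were high on all furan arrays and highest in control 2 among the controls: Cd24 read -2.97, 0.02, -2.998 and -2.82 in controls and 1.81, 1.57, -0.03 and -0.24 after furan, and Epcam -1.80, -0.69, -1.59 and -1.67 in controls and 1.17, 0.60, 0.04 and -0.39 after furan. In furan 3 and 4 both were above control 1, 3 and 4, while Krt19 lay among those controls and Krt7 under them.

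Of 6 tested intestinal markers 1 rose, Fabp2 (2.50), with a median change of 2.18 over the 6, and Vil1 and Muc2 were not bright enough. Lgals4 (3.51), Cdx2 (2.97) and Tff3 (1.87) did not pass, with limma adjusted p = 0.229, 0.0686 and 0.156, and Cdx2 passed with median centring (0.0489). As for Gpx2, control 2 was the highest control for the uncalled Lgals4, Cdx2 and Tff3. Lgals4 read -0.95 there against -8.18 to -7.20 in the other controls, and Cdx2 -3.37 against -7.69 to -6.71. The other tested markers did not follow this. Fabp2 read -1.98, -1.86, -1.14 and -1.22 in controls, and Cdx1 and Cdh17 were highest in control 4 (0.82 and 3.42). The summed level of 2.93 to 3.69 in controls overlapped with 3.50 to 4.19 after furan. That sum includes Cdh17, which read 2.51 to 3.42 over the 8 arrays, with a change of 0.09 (limma adjusted p = 0.796). The part of biliary or intestinal-type cells in the Gpx2 change was not tested.

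**Figure D4:**
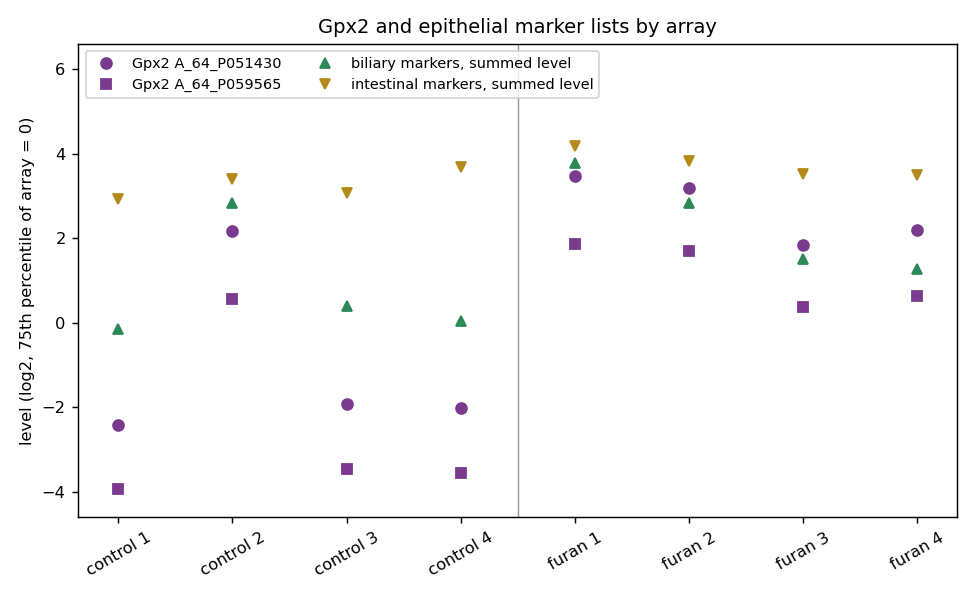
Level of both Gpx2 probes and summed log2 level of the biliary and intestinal marker lists (y axis, log2, array 75th percentile at 0) on each of the 8 arrays (x axis). Control 2 is the highest control for Gpx2 and for the biliary sum of 2.84, and the vertical line divides the groups.

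Among the other glutathione peroxidases, 3 of 5 were tested. Gpx7, an enzyme of the endoplasmic reticulum, rose by 1.51 (limma adjusted p = 0.00286), from -3.33, -2.32, -2.66 and -2.80 in controls to -1.15, -1.10, -1.74 and -1.08 after furan. No furan array of Gpx7 reached down to the controls. The plasma enzyme Gpx3 had a change of 1.05 that did not pass (limma adjusted p = 0.308).

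Prdx1, an abundant cytosolic peroxiredoxin, did not pass the test. Its levels were 5.43, 5.07, 4.99 and 5.25 in controls and 5.24, 5.19, 5.25 and 5.34 after furan (chr5:136983425-136984996, plus strand, across an intron). All furan arrays lay within the control range. The change was 0.07 ± 0.12 (SE; 95% interval -0.20 to 0.35; limma adjusted p = 0.672). Of 6 other genes of this group 3 rose and none fell: Srxn1, which repairs over-oxidized peroxiredoxins (1.67; limma adjusted p = 0.00696), Prdx6 (0.70; 0.00293) and the mitochondrial Prdx3 (0.47; 0.0205, lost with median centring at 0.152). These counts changed with the scaling. With quantile normalization 4 rose and Prdx5 fell (-0.33; limma adjusted p = 0.0273). With normexp correction 4 also rose and Prdx5 fell (-0.37; 0.0411).

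The NRF2 system controls many antioxidant genes through a short promoter element. Of its 13 listed genes 3 rose and 2 fell, with a median change of 0.18, or -0.08 with normexp correction. Slc7a11, the cystine importer, rose by 3.102 (limma adjusted p = 0.00811), Nqo1, a quinone reductase, by 1.77 (0.00169) and Gclc, the catalytic subunit that begins glutathione synthesis, by 0.79 (0.00643). The adaptor Sqstm1 fell by 0.63 (0.0117) and the DNA-binding partner Mafg by 0.61 (0.00743). Nfe2l2, which encodes NRF2 itself, had a change of 0.42 (limma adjusted p = 0.148) and Hmox1, the inducible heme oxygenase, of -0.02. Slc7a11 was dim, and with normexp correction its rise was 1.06. Over the 76 listed genes of all 8 lists, 71 were tested, and 12 (16.9%) rose and 14 (19.7%) fell, near the shares of the whole array.

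The core of that element, TGACNNNGC on either strand, was searched for in the RefSeq promoter windows of the 10 genes (build GRCr8, 250 bases before to 50 after the start). All 10 genes had a window. The core was in 3 of them, Gpx2, Prdx1 and Sod2, and in 12.1% of all 33469 windows. Of these 3 genes Gpx2 rose, and the other two had the changes near 0 given above. The stretches are shown because they let the called and uncalled genes be compared, with the match in capitals. All 3 matches are on the strand opposite to the gene, and start 13, 135 and 35 bases before the gene start.
Gpx2, chr6:101230018-101230066, minus strand: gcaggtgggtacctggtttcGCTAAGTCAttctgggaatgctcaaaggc
Prdx1, chr5:135383751-135383799, plus strand: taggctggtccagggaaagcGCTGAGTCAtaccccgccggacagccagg
Sod2, chr1:50050175-50050223, minus strand: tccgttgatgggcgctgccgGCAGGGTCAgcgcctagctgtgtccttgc

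The furan arrays differed among themselves, also between slides, and furan 1 had the largest spread among replicate spots. Furan 1 was the lowest furan array for 6 of the 12 probes and the highest for 4, and furan 4 was the highest for 7. Within slide 1 the changes of Nox4, Cat and Gpx1 were -4.37, -1.09 and -1.02, and within slide 2 they were -2.35, -0.54 and -0.35. Gpx2 rose by similar amounts on both, 3.47 and 4.01 for the stop codon probe. Cybb, Cyba, Sod2, Gpx4 and Prdx1 had opposite signs on the 2 slides. With slide as a block in the limma fit the same number of probes was called, 2 higher and 3 lower. Within slide 1 alone, with 2 arrays a group, none of the 12 probes was called, and the difference between slides was not tested.

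**Figure D5:**
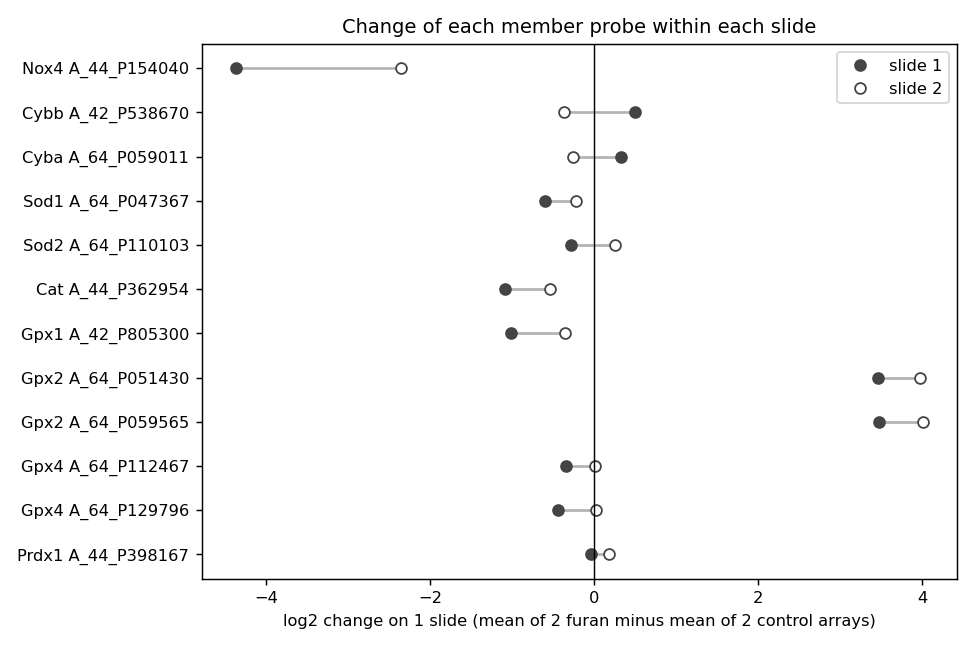
Log2 change, furan minus control (x axis), of each of the 12 probes computed within slide 1 (filled circles) and within slide 2 (open circles), each from 2 furan and 2 control arrays, without error bars. The change was larger in size on slide 1 for 9 of the 12 probes, and Gpx2 is among the exceptions.

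The genes whose levels ran most like 3 of the members were found by Pearson's r over the 8 arrays, among 14555 probes with a symbol that were well above background on every array. Such values are a description, since the arrays share their groups. An r over 0.9 was reached by 979 genes for Nox4, 183 for Gpx2 and 42 for Cybb, so the genes named are the top of many. For Nox4 they were Sat2 (0.993), Mup4, Mug1l1 and Tmc1 (each 0.991). For Gpx2 they were the transcription factor gene Tfcp2l1 (0.984), the biliary marker Cd24 (0.982), Prkca (0.973) and Dync2li1 (0.971). For Cybb they were the macrophage folate receptor gene Folr2 (0.967), the Fc receptor chain gene Fcer1g (0.961), Slc7a8 and Gna15 (each 0.960).

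After each group's mean was subtracted, which leaves the spread among arrays of a group, other genes stood nearest. An r over 0.9 was then reached by 183 genes for Nox4, 82 for Gpx2 and 138 for Cybb. Control 2 lay far from its group for Gpx2, and furan 1 for Nox4, so 1 array weighs heavily in those values. For Nox4 they were Ccdc159 (0.997), the chemokine gene Cxcl12 (0.983), Mrpl30 (0.983) and Vps25 (0.982). For Gpx2 they were Abl1 (0.991), Ppp2r3a (0.980), the surfactant protein gene Sftpd (0.978) and Ch25h (0.978). For Cybb they were the class II gene RT1-DMb (0.987), Dnajc17 (0.979), the Fc receptor gene Fcgr1a (0.978) and the macrophage marker Cd68 (0.977).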

How the data were processed

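Per the labels, cyanine-3 labelled RNA was hybridised to Agilent rat arrays, and the authors' deposited scanner files, made with Agilent Feature Extraction 10.7 per the submitters' processing notes, hold background-corrected intensity values per spot. The deposited series table holds the same intensity scaled to a fixed 75th percentile and served as an alternative. Spots flagged as non-uniform or as population outliers were left out, log2 values were averaged per probe and the array's 75th percentile was subtracted; 170 probes with no usable spot on an array were dropped. A probe was tested when well above background, in at least a share of 0.5 of its usable spots, on all 4 arrays of a group. limma 3.58.1 (R 4.3.3; lmFit, eBayes) compared all 8 arrays, with Benjamini-Hochberg adjustment over 20268 probes, called at 0.05. The fit was tested on simulated data. For listed genes the brightest tested probe was used. Named were all 10 genes, up to 3 called rises and 3 falls per list, and the 4 most alike genes; further genes named with a count complete it or mark a cell type. The summed level of a marker list is the log2 of its summed linear levels. Alternatives covered background correction, scaling, spot and probe filters, variance model, slide, pairing and arrays left out. Genes and lists were chosen with earlier results of these data known.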

Additional observations from a re-analysis of the deposited data

Results flagged for a closer look

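Of 66 sets of 4 values checked for 1 value far from the other 3, 5 stood out, and chance flags about 1 in 20. Control 2 was the highest control for both Gpx2 probes, at 2.16 against -2.42 to -1.92 and at 0.574 against -3.93 to -3.46. Furan 3 was low for Gpx7, at -1.74 against -1.15 to -1.08. Furan 4 was high for Paox, at 3.95 against 3.75 to 3.76. Furan 1 was high for Cybc1, at 0.544 against 0.313 to 0.333, still under every control.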

How the results depend on the processing

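Of 274 alternative values for the 12 probes, 223 kept direction and call, 24 lost the call, 3 gained it and 24 changed sign, all of the last in uncalled genes. Slide 1 alone (2 arrays a group) called 0 of the 12 probes, 115 higher and 35 lower of all probes and 0 listed redox genes. Slide 2 alone called 2 of the 12 higher and 1 lower, 749 higher and 513 lower of all, and 4 higher and 0 lower listed genes. With 1 probe per gene 1 of the 10 was higher. Median centring left 2038 probes higher, normexp called 7102 lower (30.2% of calls higher against 50%, 43.1% with median centring), and without control 2 and furan 1 8 listed genes fell. Leaving out each array in turn gave 0 to 2 of the 12 higher and 2 to 4 lower, 2479 to 3363 of all higher and 2213 to 3386 lower (2213 without furan 2), and 10 to 15 listed genes higher and 10 to 16 lower. The cause of these shifts was not tested. Sign changes were as follows. Cyba was at -0.0366 with median centring, -0.0729 without control 2 and furan 1, -0.26 on slide 2 and -0.0871 to 0.133 with 1 array left out. Cybb was at -0.0048 with median centring, -0.0573 without control 2 and furan 1, -0.11 with normexp, -0.0236 with quantile normalization, -0.36 on slide 2 and -0.145 to 0.244 with 1 array left out. Sod2 was at 0.0702 without control 2 and furan 1, 0.0201 with normexp, 0.0296 with quantile normalization, 0.25 on slide 2 and -0.122 to 0.0765 with 1 array left out. Gpx4 was at 0.0129 and 0.0206 on slide 2, and Prdx1 at -0.0341 on slide 1. The replicate numbers did not pair the arrays (same-number correlations -0.30 to 0.28). A replicate block called 2 of the 12 probes higher and 2 lower, losing Gpx1 (adjusted p = 0.0558), 2638 higher and 2472 lower of all, and 11 higher and 11 lower listed genes. Dim signal limits Nox4 after furan and Cybb in every array.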
